A study of Mus musculus with 4 samples.

Results

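Homeobox and T-box genes that pattern the embryo were followed in sorted cells of the adult mouse submandibular gland, a major salivary gland. The set holds the Hox genes of the 4 clusters, the numbered sine oculis homeobox, Irx, Dlx, Pitx, Meis, Pbx, Msx and Barx genes and the numbered Tbx genes, chosen by symbol from the array's gene names. It came to 85 of the 36282 genes on the array, measured by 104 of its 55681 probes. Each gene is represented by the probe with the highest mean signal over the 4 arrays.

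RNA came from C57BL/6 mice aged 8 to 10 weeks. The study set stem cells of the gland (2 arrays) against non-stem cell epithelia (2 arrays), both freshly sorted by flow cytometry, on 1-colour arrays labelled with Cy3. No treatment or genetic change was named for either group. Which markers defined the sort is not given in these sources, nor is it stated whether the 2 samples of a group came from separate animals or sorts. The p-values therefore cover the spread between these samples alone, and that spread may be technical. Values below are log2 signal relative to the 75th percentile of the same array, so that 0 is that percentile and each unit is a doubling. A gene was tested where the scanner software placed its probe well above background on at least 2 arrays, and was called where its limma p, adjusted over all tested genes, was under 0.05. Fewer cells of a type and less RNA per cell cannot be told apart in pooled RNA.

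Homeobox and T-box proteins bind DNA and set the identity of body regions and organs. Hox genes lie in clusters and act along the head-to-tail axis, and their proteins bind DNA together with Pbx and Meis proteins. The first pharyngeal arch, which forms the jaws and the floor of the mouth, develops without Hox expression, and there sine oculis, Irx, Dlx, Pitx, Msx, Barx and Tbx genes pattern the tissue.

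The 4 arrays had 35.7% to 42.3% of their 59305 non-control spots well above background, and the signal at the 75th percentile ran from 34.0 to 48.9 in stem cells and from 71.1 to 84.2 in non-stem cell epithelia. Probes correlated at 0.984 between the stem cell arrays, at 0.991 between the other two, and at 0.922 to 0.935 across groups. The stem cell arrays were dimmer, and the lowest signal called well above background was higher there (-1.67 and -2.18) than in non-stem cell epithelia (-2.70 and -2.61). Among the epithelial keratins, Krt8, Krt18 and Krt19 were higher in stem cells, while Epcam was lower and Cdh1 was not called. Of 7 acinar cell markers 6 were lower in stem cells, with a log2 summed level of 8.33 and 8.35 against 11.87 and 11.96, and of 7 duct markers 5 were higher and 1 lower, at 9.0 and 9.05 against 7.13 and 7.20. Of 8 tested basal duct and myoepithelial markers 4 were higher, at 7.51 and 7.53 against 6.25 and 6.33. Of 10 endothelial markers 6 were tested, 3 were higher and 1 lower, at a summed 4.17 and 4.02 against 4.42 and 4.52. Kdr and Vwf were above background on all 4 arrays, and Cdh5, Tie1 and Emcn on none. Of 10 fibroblast markers 2 were tested, and Dcn was higher, at 3.94 and 4.11 against 1.89 and 1.86. The whole list summed to 4.31 and 4.40 against 3.05 and 3.16. In it 7 genes, among them Col1a1, Pdgfra and Twist1, were above background on no array. Of 7 white blood cell markers 5, among them Ptprc, were above background on no array. Cd3e and Csf1r were above background on all 4 arrays and were not called. The list summed to 2.68 and 2.18 against 2.37 and 2.51. Of 7 nerve and Schwann cell markers 2 were tested, 1 higher and 1 lower, at 2.52 and 2.32 against 3.42 and 3.85, and all 4 tested erythroid markers were lower in stem cells, at 5.29 and 5.30 against 7.33 and 7.64. Markers of acinar, duct, basal, endothelial, fibroblast, nerve and erythroid cells thus moved with the contrast on which every member below was compared, and their part in the results was not tested.

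Most of the set was not detected. Of the 85 genes, 26 were tested (30.6%), where 47.8% of all genes were, and 21 were well above background on all 4 arrays, where 39.7% of all genes were. The chosen probe of 56 genes was above background on no array, and that of 3 genes on 1 array. Detection split by family, as the plot of detection shows. The Hox genes made up 38 of the 56, and 25 of the 46 other genes were tested (54.3%).

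**Figure D1:**
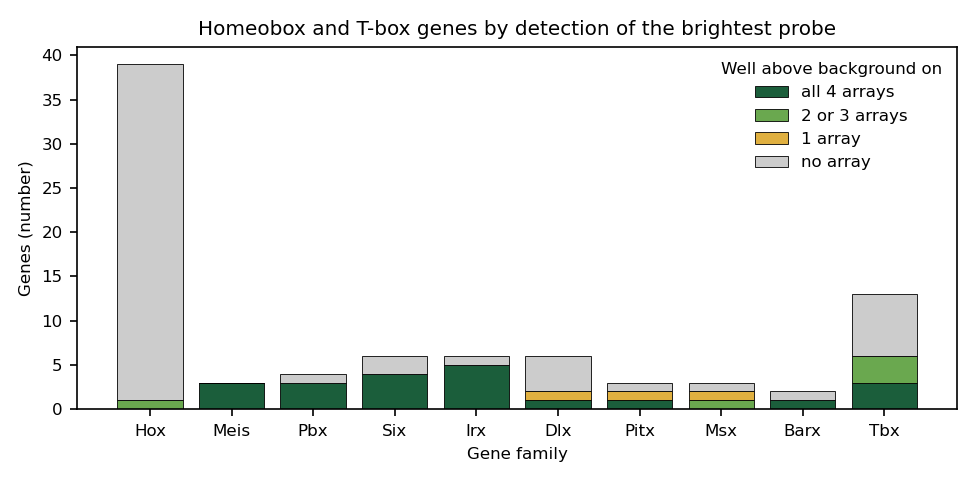
Number of genes in each family, stacked by the number of arrays on which the brightest probe was well above background. The Hox bar is grey except for 1 gene, while all 3 Meis genes and 5 of 6 Irx genes were above background on all 4 arrays.

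Among the 26 tested members, 6 were higher in stem cells, 3 were lower and 17 were not called. Tbx2 among the higher and Tbx1 among the lower reached the test only through the arrays of the group where they were high. Over all 17359 tested genes limma called 14.3% higher, 16.7% lower and 31% in either direction. The median log2 difference was 0.14 over the tested members and -0.01 over all tested genes, and the median absolute difference was 0.41 and 0.42. The groups did not overlap for 17 of the 26 members, beside 71.1% of all tested genes. The 6 to 3 split moved with the scaling, to 8 and 2 with the percentile taken over detected probes and to 4 and 6 with the normexp background correction. Over all genes the share of calls that were higher was 46.1%, and became 59.3% and 29.2% under those settings. Without non-stem cell epithelia replicate 1 the members split 2 and 2, and without replicate 2 they split 1 and 1.

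**Figure D2:**
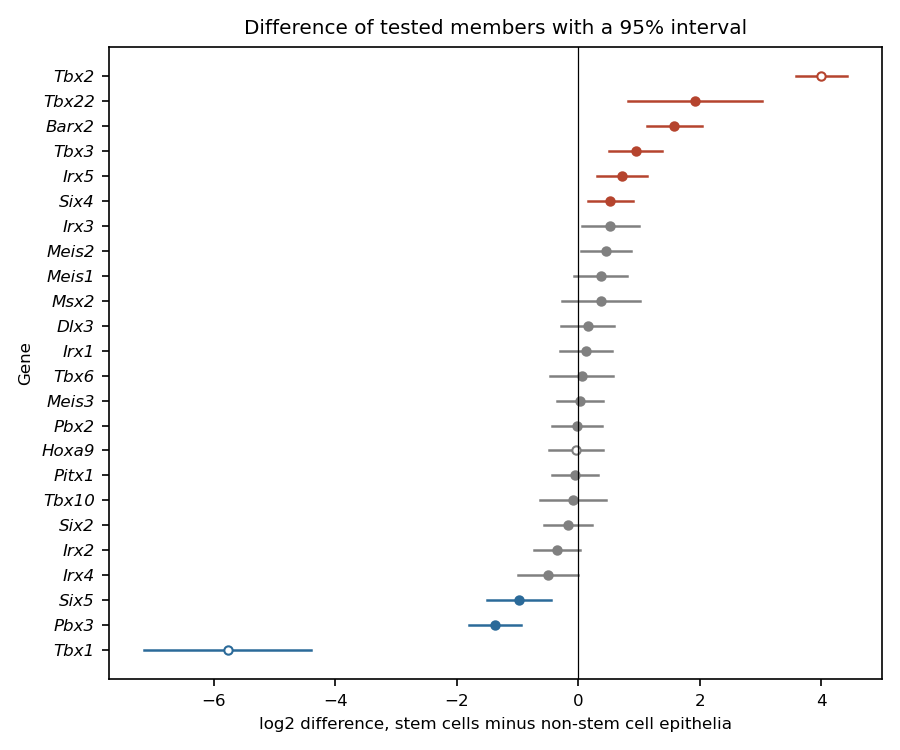
Log2 difference of stem cells minus non-stem cell epithelia for tested members, points with 95% intervals from limma (red higher, blue lower, grey not called). Open points mark Tbx1, Tbx2 and Hoxa9, whose probes were well above background in 1 group only, so their place on the axis rests partly on background values, while Barx2 at 1.58 and Pbx3 at -1.36 were measured on all 4 arrays.

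The Hox genes, which mark position along the trunk and limbs, were nearly undetected. No probe of 37 of the 39 genes (94.9%) was above background on any array, where this held for 47.7% of all genes. The same was true of 18 of the 46 other members (39.1%). The genes lie in 4 clusters, here by the mm9 positions of their probes: 11 Hoxa genes at chr6:52105392-52209039, 10 Hoxb genes at chr11:96057854-96228510, 9 Hoxc genes at chr15:102759058-102867272 and 9 Hoxd genes at chr2:74509248-74603059. Chosen probes of the Hoxb, Hoxc and Hoxd clusters were above background on no array.

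Signal of the 38 chosen Hox probes other than Hoxa9 ran from -3.99 to -1.91 on the first stem cell array and from -4.50 to -2.72 on the second. It ran from -5.03 to -3.0 and from -4.95 to -2.71 in non-stem cell epithelia. All of these ranges stayed below the lowest value called well above background on the same array, and the order of values under it carries no meaning. Their medians were -3.76 and -4.34 against -4.87 and -4.80, and since all lie below background and each array was scaled by its own 75th percentile, no difference in expression is read from them.

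Hoxa9, a gene of the 5' part of its cluster that is known from blood stem cells and limbs, was the exception among the chosen probes. Its signal was -1.95 and -2.21 in stem cells, against -2.14 and -1.95 in non-stem cell epithelia, well above background in both of the latter only. The groups overlapped, and the difference of -0.04 ± 0.18 (SE, n = 2 arrays per group) did not pass the limma test (adjusted p = 0.89). The 95% interval ran from -0.48 to 0.40. The probe lies at chr6:52174165-52174224 on mm9, where its longest run shared with a probe of another gene was 18 bases, and a second Hoxa9 probe was above background on no array. No fold bound is given, because the measured group did not exceed the bound set by the stem cell arrays.

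**Figure D3:**
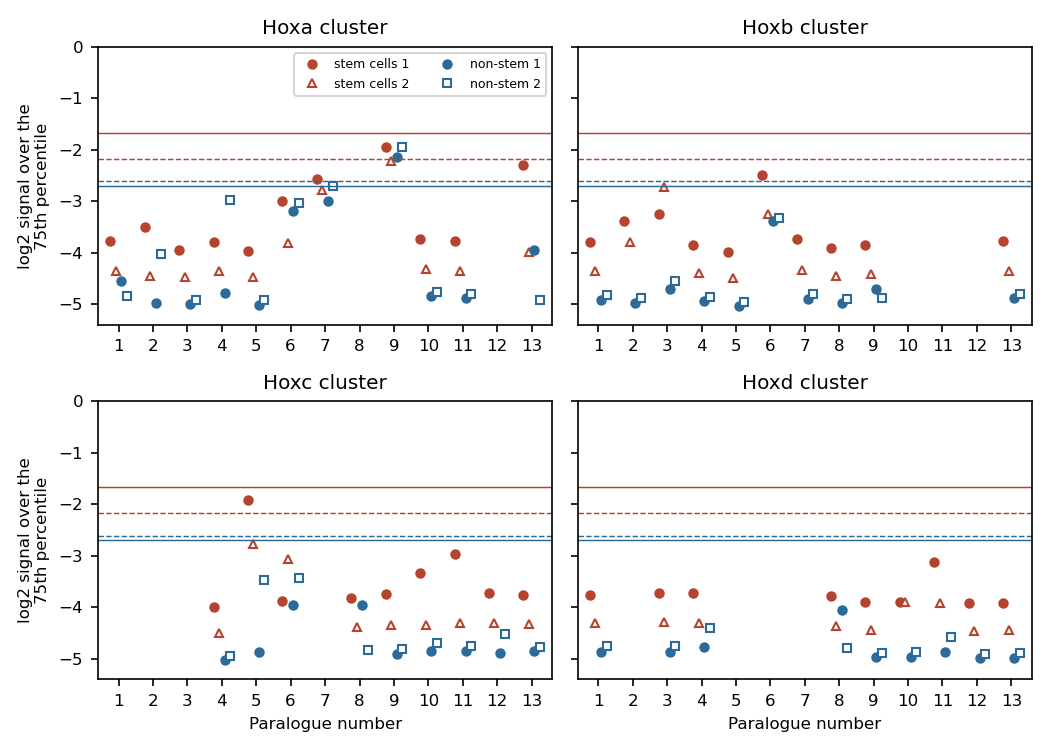
Log2 signal over the 75th percentile of the brightest probe of each Hox gene on each array, by cluster and paralogue number (points are shifted sideways for clarity). Horizontal lines give the lowest value called well above background on each array, in the colour of its group, solid for replicate 1 and dashed for replicate 2, and only Hoxa9 of non-stem cell epithelia was called well above background.

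Hox promoters were read from RefSeq on GRCm38.p6, which held 22 of the 39 Hox genes and 51 of the 85 members in 57 promoters. In the 250 bases before each start, 5 motifs were searched on both strands. These were the homeodomain palindrome TAATTA, the Meis motif TGACAG (reverse CTGTCA), the Pbx with Hox motif TGATNNAT (reverse ATNNATCA), the T-box motif GGTGTGA (reverse TCACACC) and the sine oculis family motif TCAGGTT (reverse AACCTGA). The members held them in 5, 6, 6, 1 and 3 of 57 promoters (8.77%, 10.5%, 10.5%, 1.75% and 5.26%). Over all 32851 promoters the shares were 4.84%, 15.9%, 7.68%, 3.33% and 3.49%. The promoter of Hoxa2, a hindbrain and second-arch gene, is shown because it holds a Pbx with Hox match and a Meis match, both in capitals, while its own probe was above background on no array.
Hoxa2, minus strand, chr6:52164832-52165081 on GRCm38.p6: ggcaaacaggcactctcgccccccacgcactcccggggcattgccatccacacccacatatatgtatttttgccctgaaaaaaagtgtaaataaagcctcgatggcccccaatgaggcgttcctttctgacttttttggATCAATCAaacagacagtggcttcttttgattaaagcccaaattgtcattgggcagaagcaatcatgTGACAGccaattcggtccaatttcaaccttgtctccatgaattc
A match is a description of the letters and not a bound site.

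The Meis and Pbx genes, whose proteins carry the TALE homeodomain and pair with Hox and other factors, were detected almost throughout. All 3 Meis genes were above background on all 4 arrays, as were Pbx2 and Pbx3, and Pbx4 was on none. Pbx3 was called. Its signal was 0.89 and 0.68 in stem cells, against 2.05 and 2.25 in non-stem cell epithelia, so both stem cell arrays lay below both others. It fell by 1.36 ± 0.17 on the log2 scale (SE, n = 2 per group), which is 2.57-fold lower (limma adjusted p = 0.0044). Without non-stem cell epithelia replicate 2 the adjusted p was 0.058, and without the filter on dim probes 0.054.

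For Meis2 the values were 4.67 and 4.80 against 4.40 and 4.17, a difference of 0.45 ± 0.17 (adjusted p = 0.093), and for Meis1 5.95 and 6.02 against 5.77 and 5.46, 0.37 ± 0.17 (adjusted p = 0.16). Neither passed the limma test. Pbx2 and Meis3 stood at -0.02 ± 0.16 and 0.02 ± 0.15 with overlapping groups, and their 95% intervals ran from -0.43 to 0.39 and from -0.36 to 0.40. With the intensity trend and robust variances Meis1 and Meis2 passed, and Meis2 also passed with quantile normalization and with the percentile over detected probes.

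The sine oculis homeobox genes encode factors that work with the Eya and Dach proteins and are known for muscle, ear and head development. Within the family Six2, Six4 and Six5 were above background on all 4 arrays, and Six3 and Six6 on none. Six4 and Six5 were called in opposite directions. Six5, which lies beside the myotonic dystrophy gene, was at 0.78 and 0.45 in stem cells, against 1.40 and 1.79 in non-stem cell epithelia. It fell by 0.98 ± 0.21 (1.97-fold lower, limma adjusted p = 0.023). Six4, a factor of muscle development, was at 1.55 and 1.58 in stem cells, against 1.03 and 1.05 in non-stem cell epithelia, and rose by 0.53 ± 0.15 (1.44-fold, adjusted p = 0.045). The groups overlapped for neither gene.

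The Six4 call was the weakest of the set: its adjusted p was 0.084 to 0.17 with any 1 array left out, 0.13 without the filter on dim probes, and 0.28 with normexp, where the difference was 0.20. Six5 missed the threshold without non-stem cell epithelia replicate 1 (0.066) or replicate 2 (0.14), with the percentile over detected probes (0.056) and without the filter on dim probes (0.11). Six2 was at 3.68 and 3.85 against 3.98 and 3.91, -0.18 ± 0.16 (adjusted p = 0.43). The probes of Six2 disagreed, since its 2 others, both above background on all arrays, gave differences of -0.85 and 0.87. With normexp the chosen Six2 probe gave -0.58 and passed (adjusted p = 0.013).

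Promoters of Six4 and Six5 are shown, each with its motif match in capitals. Six4 has a second listed start with no match, and the match in Six4 is to the motif of its own family.
Six4, minus strand, chr12:73113246-73113495 on GRCm38.p6: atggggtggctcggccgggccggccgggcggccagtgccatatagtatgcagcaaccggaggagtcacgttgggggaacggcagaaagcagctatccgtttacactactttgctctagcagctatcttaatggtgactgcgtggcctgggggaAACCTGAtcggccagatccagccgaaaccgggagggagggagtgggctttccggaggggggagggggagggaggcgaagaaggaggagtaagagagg
Six5, plus strand, chr7:19094294-19094543 on GRCm38.p6: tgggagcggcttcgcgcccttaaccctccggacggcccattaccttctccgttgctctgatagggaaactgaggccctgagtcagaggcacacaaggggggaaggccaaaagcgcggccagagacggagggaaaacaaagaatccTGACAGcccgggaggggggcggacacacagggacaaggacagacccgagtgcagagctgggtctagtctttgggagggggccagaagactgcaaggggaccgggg
The match in Six5 is to the Meis motif, which 15.9% of all promoters hold.

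The Irx genes, Iroquois homeobox factors that lie in 2 groups of 3 neighbours, were detected apart from Irx6. By probe position Irx1, Irx2 and Irx4 lie on chromosome 13 and Irx3, Irx5 and Irx6 on chromosome 8. Irx5 was called. It was at 0.66 and 0.82 in stem cells, against 0.12 and -0.08 in non-stem cell epithelia, a rise of 0.72 ± 0.17 (1.65-fold, limma adjusted p = 0.027) with no overlap. Its call was lost without non-stem cell epithelia replicate 1 (adjusted p = 0.086) or replicate 2 (0.15) and with normexp, where the difference was 0.37 (0.0605). Without the filter on dim probes the adjusted p was 0.12.

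Irx3, the neighbour of Irx5, was at 3.01 and 3.24 against 2.76 and 2.45, 0.52 ± 0.19 (adjusted p = 0.086). The chromosome 13 genes gave differences of 0.12 ± 0.17 for Irx1, -0.35 ± 0.15 for Irx2 and -0.50 ± 0.20 for Irx4, with adjusted p of 0.62, 0.14 and 0.11. None of these 4 genes passed the test. The second Irx2 probe, at 0.25 and 0.01 against 1.04 and 1.40, gave -1.09 and the same direction as the chosen one. Irx2 passed with normexp, the intensity trend or the mean of probes, Irx4 with the intensity trend or without stem cells replicate 1, and Irx3 under 4 of the 9 other settings and without stem cells replicate 1.

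The Dlx, Pitx, Msx and Barx genes pattern the jaws, teeth and oral epithelium, and 4 of these 14 genes were tested. Barx2, a homeobox factor of epithelia and muscle, was the one called. Its signal was 4.33 and 3.98 in stem cells, against 2.60 and 2.55 in non-stem cell epithelia. All stem cell values lay above all others, and the rise was 1.58 ± 0.18 (2.98-fold, limma adjusted p = 0.0034), with a 95% interval from 1.12 to 2.03. A second Barx2 probe, at 1.24 and 1.11 against -0.17 and -0.07, differed by 1.30 in the same direction. Barx2 passed under 9 other settings of processing and model, and without non-stem cell epithelia replicate 2 its adjusted p was 0.053. Its relative Barx1 was above background on no array.

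Pitx1, a factor of the oral epithelium and hind limb, was at 5.77 and 5.84 in stem cells, against 5.91 and 5.81 in non-stem cell epithelia, and the groups overlapped. The difference was -0.06 ± 0.15 (adjusted p = 0.80, 95% interval from -0.43 to 0.32), but with normexp it was -0.49 and passed (adjusted p = 0.027). Dlx3, a factor of skin, hair and teeth, was at 2.07 and 1.80 against 1.70 and 1.85, 0.15 ± 0.17 (adjusted p = 0.52). Msx2, a target of BMP signalling, differed by 0.37 ± 0.26 and was above background on 3 arrays (adjusted p = 0.32), and passed without stem cells replicate 1 (0.048). Dlx1, Dlx2, Dlx5, Dlx6 and Msx3 were above background on no array, and Dlx4, Pitx3 and Msx1 on 1 each.

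**Figure D4:**
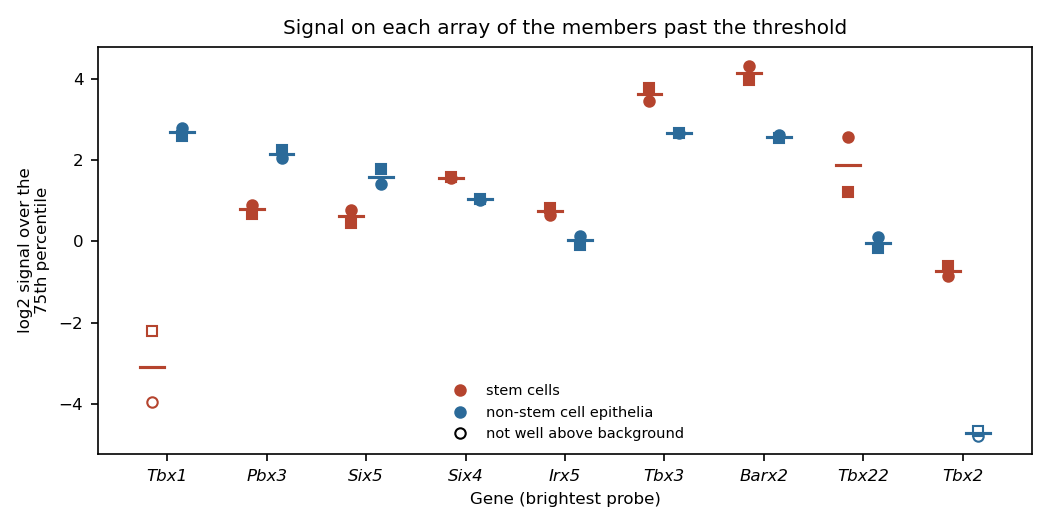
Log2 signal over the 75th percentile on each array for the 9 called members, circles for replicate 1 and squares for replicate 2, with a bar at each group mean and open symbols where the probe was not well above background. Tbx1 is open in stem cells and Tbx2 in non-stem cell epithelia.

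Of 13 T-box genes 6 were tested, 3 were higher in stem cells and 1 was lower, beside 14.3% higher and 16.7% lower of all tested genes. Tbx2 and Tbx1 were each measured in 1 group only, and the start of each probe is shown because the result rests on it (the first 30 of 60 bases, in lower case throughout as no part is singled out). Both Tbx22 probes are shown because they disagree.
Tbx1 probe: tgtgtagatactgtagatactgcaccggcg
Tbx2 probe: tttttgctccagagggagaacgaagcgaga
Tbx22 brightest probe: ctctgtgttttatcaatttcctaagaccaa
Tbx22 other probe: cgcatctttgtgtttggttgaaatgcatat
The longest run shared with a probe of another gene was 14 bases for Tbx1 and Tbx2, 19 for the brightest Tbx22 probe and 15 for the other.

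Tbx1, the T-box gene of the pharyngeal arches that is lost in DiGeorge syndrome, was at -3.95 and -2.22 in stem cells, not well above background on either array. It was at 2.79 and 2.58 in non-stem cell epithelia, above background on both. With the scanner software's background correction its level was at least 24.4-fold lower in stem cells (limma adjusted p = 0.0019). This bound was taken from the lowest signal above background on each stem cell array. It does not hold with normexp, where the log2 difference was -2.72. Tbx1 reached the test only through the non-stem arrays, and the p rests on stem cell values at background. The probe lies at chr16:18581807-18581866 on mm9. In stem cells 6 of 7 acinar markers fell in the same direction, and their part in the result was not tested.

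Tbx2, a transcriptional repressor of the limb, heart and mammary gland, showed the opposite pattern. It was at -0.85 and -0.61 in stem cells, against -4.78 and -4.68 in non-stem cell epithelia, where it was not well above background. That made it at least 3.80-fold higher in stem cells (limma adjusted p = 0.00025), and here too the test was reached through the high group alone. Its probe lies at chr11:85655391-85655450 on mm9, and that of Tbx4, its neighbour on chromosome 11, was above background on no array. The fitted log2 differences of Tbx2 and Tbx1, 4.0 and -5.77, depend on these background values and were 0.90 and -2.72 with normexp. Those normexp differences are smaller in size than the bounds, which are 1.93 and 4.61 on the log2 scale. Both bounds therefore depend on the background correction and do not hold with normexp.

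Tbx3, the close relative of Tbx2 and also a repressor, was at 3.46 and 3.77 in stem cells and at 2.67 on both other arrays. It rose by 0.94 ± 0.17 (1.92-fold, limma adjusted p = 0.014) with no overlap, while its neighbour Tbx5 on chromosome 5 was above background on no array. The call was lost without non-stem cell epithelia replicate 1 (adjusted p = 0.088) or replicate 2 (0.10) and without the filter on dim probes (0.093), and with normexp the difference was 0.46.

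Tbx22, a gene of palate development on the X chromosome, was at 2.56 and 1.21 in stem cells, against 0.10 and -0.17 in non-stem cell epithelia. The stem cell arrays differed from each other by more than a doubling but lay above both others, and the rise was 1.92 ± 0.44 (3.77-fold, adjusted p = 0.027, 95% interval from 0.81 to 3.02). Its other probe, at chrX:104884006-104884065 on mm9, was above background on no array, so the result rests on the probe at chrX:104881102-104881161. Without non-stem cell epithelia replicate 1 or 2 the adjusted p was 0.13 and 0.18, with the intensity trend 0.13, without the filter on dim probes 0.10, and without stem cells replicate 1 the difference was 1.24. Tbx10 and Tbx6 differed by -0.09 ± 0.22 and 0.06 ± 0.21 (adjusted p = 0.78 and 0.85), and Tbx4, Tbx5, Tbx15, Tbx18, Tbx19, Tbx20 and Tbx21 were above background on no array.

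Partner proteins of the homeobox factors were the first of 4 lists of related genes, all chosen with earlier results of these data known. Of 16 partners 14 were tested, 5 were higher, 1 was lower and the median log2 difference was 0.35. Of all tested genes 14.3% were higher and 16.7% lower. Dach1, a corepressor that acts with Eya proteins, was at 0.95 and 1.09 in stem cells and at -3.01 and -4.91 on the other arrays, neither well above background. That is at least 12.8-fold higher (limma adjusted p = 0.0038). Tgif2, a repressor with a TALE homeodomain, was at -1.26 and -1.28 against -2.59 and -3.29, at least 2.51-fold higher (adjusted p = 0.0083). Both reached the test only through the stem cell arrays, and their bounds were not compared with normexp. Tgif1, a relative of Tgif2, was 2.13-fold higher at 5.16 and 5.32 against 4.27 and 4.04 (adjusted p = 0.0083). Tle5, a short member of the Groucho family, fell by 0.64 ± 0.17 (limma adjusted p = 0.042). Without non-stem cell epithelia replicate 1 or 2 the higher partners numbered 3 and 2, and Tle5 was not called.

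Polycomb and Trithorax genes encode the chromatin regulators that keep Hox genes off or on. Of 24 tested, 5 were higher and 2 lower, with a median of 0.18, beside 14.3% higher and 16.7% lower of all tested genes. Cbx2, a Polycomb subunit, rose by 1.14 ± 0.15 (limma adjusted p = 0.0055), Kdm6b, which removes the Polycomb methyl mark, by 0.86 ± 0.15 (0.012), and Cbx6 by 0.76 ± 0.16 (0.020). Rbbp5, a core subunit of the Trithorax methyltransferases, fell by 1.31 ± 0.20 (0.0078) and Ring1, a Polycomb ubiquitin ligase, by 0.80 ± 0.22 (0.042). With normexp 2 were higher and 5 lower, and without non-stem cell epithelia replicate 1 or 2 limma called 0 higher (5 and 4 at an unadjusted p under 0.05).

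Retinoic acid sets Hox expression along the body axis. Of 21 genes of its metabolism and receptors and of the Cdx family 12 were tested, and 8 were above background on no array. Cdx1, Cdx2 and Cdx4 were among those 8, so no Cdx gene was tested. In the limma fit 4 of the 12 tested genes were higher and 0 lower. The median of the tested genes was 0.11, and 14.3% of all tested genes were higher and 16.7% lower. Of the list, 0 genes were lower at an unadjusted limma p under 0.05, and 2 were higher and 2 lower with normexp. The receptor Rarb was at 1.76 on both stem cell arrays against 0.37 and 0.31, a rise of 1.42 ± 0.15 (limma adjusted p = 0.0025), and Rarg rose by 0.83 ± 0.17 (0.019). Without non-stem cell epithelia replicate 1 or 2 the higher genes numbered 2.

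Other homeobox and T-box genes were the last list. Of 56 genes 15 were tested, 1 was higher and 5 were lower, with a median of -0.37, beside 14.3% higher and 16.7% lower of all tested genes, and 39 were above background on no array. Nkx2-3, a homeobox gene with roles in gut, spleen and salivary gland development, was at -1.21 and -1.38 in stem cells. In non-stem cell epithelia it was at 2.97 and 3.08, so it was 20.0-fold lower in stem cells (limma adjusted p = 0.00021). Its stem cell signals lay close to the lowest ones called well above background there (-1.67 and -2.18), so the size of the fold is uncertain. Isl2, a LIM homeobox gene of motor neurons, was at -3.34 and -4.24 against 1.64 and 1.48 and so at least 11.2-fold lower (adjusted p = 0.00049). Tlx2, a gene of the enteric nervous system, was at least 1.29-fold lower (adjusted p = 0.0018). Neither was well above background in stem cells, so both reached the test only through the non-stem arrays. The bounds of Isl2 and Tlx2 were not compared with normexp. Pax9, a gene of teeth and pharyngeal pouches, rose by 0.60 ± 0.15 (adjusted p = 0.035). Without non-stem cell epithelia replicate 1 or 2 the lower genes numbered 3 and Pax9 was not called.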

How the data were processed

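The scanner files deposited by the authors hold spot intensity on a linear scale. Version 10.7.3.1 of Agilent Feature Extraction wrote them, with probe positions on mm9 (NCBI build 37), per the file headers, while the submitters' processing notes name version 9.1. The deposited series table holds log2 values by the authors, whose differences between arrays correlated at 1 with the scanner values. Its columns had medians of -0.28 and -0.55 in stem cells, then -0.83 and -0.76 in the other group, and its baseline per probe is unknown.

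Here log2 of the background-corrected signal minus each array's 75th percentile was fitted with limma 3.58.1 in R 4.3.3 (lmFit, eBayes), with Benjamini-Hochberg adjustment over the 17359 genes with a probe well above background on at least 2 arrays (the brightest such probe). No spot was saturated, and all arrays were on 1 slide. The number of arrays, 2 per group, limits the precision. Symbols other than the members' came from RefSeq by accession for 26582 probes, and 29099 kept the file's name. A bound on a fold sets a group's mean against the other group's arrays. Each of those arrays enters at its own value or at its lowest signal well above background, whichever is higher. The bounds of Tbx1 and Tbx2 do not hold with normexp, and the other bounds are not compared with it here. Whether probes lie in exons or UTRs was not analysed here.

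Members, lists and alternatives were chosen with earlier results of these data known. Values on every array are given for members past the threshold or measured in 1 group only, and from each list up to 3 genes of smallest p per direction are named. Values of a few genes are not reported here. Further members with values are named so that each is accounted for. Alternatives covered scaling, background correction, the dim-probe filter, variance model, replicate block, probe averaging and each array left out. The script was tested on simulated data.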

Additional observations from a re-analysis of the deposited data

Results flagged for a closer look

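The probes below lay outside the tested set and were picked because they were well above background on a single array. Dlx4 was at -1.56 on stem cells replicate 2 and at -2.05, -4.22 and -3.57 on the others. The second probe of Hoxb3 was at -1.47 on stem cells replicate 2 and at -3.98, -5.03 and -4.94 elsewhere. Msx1 was at -2.06 on non-stem cell epithelia replicate 2, and at -2.06, -2.36 and -2.78 on the other arrays, where it was not well above background. Pitx3 was at -2.45 on non-stem cell epithelia replicate 2 and at -3.45, -3.41 and -3.03 elsewhere. By that choice the other array of the same group was not well above background in each case. Groups of 2 arrays are too small for a check of outlying samples.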

How the results depend on the processing

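Barx2 kept its direction and stayed past the threshold in 9 other settings, and missed it with 1 of the 4 arrays left out, non-stem cell epithelia replicate 2. Without the dim-probe filter, where more genes were tested, 6 of the 9 called members missed the threshold. With the percentile over detected probes the median of all tested genes was 0.13 in place of -0.01, and without the dim-probe filter it was 0.43 over all genes, so differences are relative to those shifts. The cause of changes between settings was not tested.

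Counts of calls moved as follows, higher and lower meaning in stem cells. With the percentile over detected probes, 0 partners and 1 Polycomb or Trithorax gene were lower. With normexp, 6 members, 4591 genes of all, 2 partners, 5 Polycomb or Trithorax genes and 2 retinoic acid genes were lower, and 2 Polycomb or Trithorax genes, 2 retinoic acid genes and 0 other homeobox genes were higher. Without the dim-probe filter, 1 member, 741 genes of all, 0 partners, 0 Polycomb or Trithorax genes and 3 other homeobox genes were lower, and 820 genes of all, 1 partner, 0 Polycomb or Trithorax genes and 2 retinoic acid genes were higher. With all 4 arrays required above background, 2 other homeobox genes were higher and 3 lower, with fewer genes tested. With the intensity trend, 5 members and 1 retinoic acid gene were lower, and 8 partners and 3 other homeobox genes were higher. With the mean of tested probes 1 retinoic acid gene was lower.

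The replicate numbers did not pair the samples (deviations of same-numbered arrays correlated at -0.10 over 17358 genes). With the replicate block 5 members were higher (Six4 missed at an adjusted limma p of 0.10) and 3 lower, 0 partners and 1 retinoic acid gene were lower and 0 other homeobox genes were higher. The crossed pairing, chosen after seeing the data, gave 4 higher and 3 lower members.

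Leaving out 1 array at a time gave 1 to 7 higher and 1 to 4 lower members, fewest without non-stem cell epithelia replicate 2 (1 and 1) and replicate 1 (2 and 2), where the lone array is assumed to vary like the stem cells. Over all genes it gave 592 to 3014 higher and 743 to 3586 lower. Higher and lower counts ran from 2 to 6 and 0 to 1 for partners, 0 to 7 and 0 to 2 for Polycomb and Trithorax genes, 2 to 4 and 0 to 1 for retinoic acid genes, and 0 to 3 and 3 to 7 for other homeobox genes.

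Differences that changed sign belonged to members that were not called. With normexp they included Dlx3 -0.14, Hoxa9 0.27, Irx1 -0.27, Meis1 -0.076, Meis3 -0.14 and Tbx10 0.19. With the percentile over detected probes they were Hoxa9 0.097, Pbx2 0.11, Pitx1 0.078 and Tbx10 0.048, with quantile normalization Pbx2 0.092 and Tbx6 -0.052, and with the mean of probes Meis3 -0.13. With 1 array left out the range was -0.17 to 0.093 for Hoxa9, -0.019 to 0.26 for Irx1, -0.035 to 0.081 for Meis3, -0.11 to 0.069 for Pbx2, -0.34 to 0.17 for Tbx10 and -0.15 to 0.27 for Tbx6. Signals below background limit Tbx1, Tbx2, Dach1, Tgif2, Isl2 and Tlx2 to bounds, and those of Tbx1 and Tbx2 do not hold with normexp.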
